A study of Mus musculus with 18 samples.

Results

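Expression of 10 genes of the Notch pathway was followed in mouse tubular epithelial cells treated with transforming growth factor β (TGFβ), with nicotinamide (NAM) or S-adenosyl methionine (SAM), or with TGFβ and one of these supplements. The genes are the ligands Jag1, Jag2 and Dll1, the receptors Notch1, Notch2 and Notch3, and the targets Hes1, Hey1, Heyl and Nrarp. They were taken as a list of symbols and matched to Ensembl identifiers, so no measured value was part of the rule. All 10 were found among 55487 gene rows. Of these, 8 passed the low-count filter and 7 were judged. Dll1, Hey1 and Heyl were too low to judge, because they failed the filter or averaged under 1 CPM (reads scaled to a common library size).

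Notch signalling passes between touching cells. A ligand of the Jagged or Delta-like family on 1 cell binds a Notch receptor on its neighbour, the receptor is cut by an ADAM protease and by γ-secretase, and the freed intracellular domain joins the DNA-binding protein RBPJ to switch on target genes. Among these targets, HES and HEY proteins are transcriptional repressors, and NRARP is a feedback inhibitor that binds the intracellular domain. In kidney tubules the pathway is known for its role in nephron patterning and for its reactivation in injured and fibrotic kidney, where TGFβ is a known inducer of Jag1.

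The cells, im-TEC, are a conditionally immortalized line that carries SV40 large T antigen under interferon-γ and temperature control, so all groups share this transgene. Interferon-γ was withdrawn and the cells were held at the restrictive temperature for 7 days before seeding. The 6 groups of 3 libraries were TGFβ (10 ng/mL) with SAM, TGFβ with NAM, TGFβ alone, SAM (0.5 mM), NAM (1 mM) and control, each for 48 h. NAM and SAM are the substrates of nicotinamide N-methyltransferase, the enzyme with which the series is concerned. RNA was read near transcript 3′ ends with QuantSeq libraries. Nothing in the labels says that replicates were separate cultures, so the p-values measure the spread between these libraries, which may be technical.

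Between 4171170 and 7717626 reads per library were assigned to genes, and 1 read was worth 0.128 to 0.245 CPM. The epithelial label was only partly borne out. Epcam had 0 reads and Cdh1 19 reads over all 18 libraries, whereas the tubular genes Pax8 (165 to 260 CPM) and Lrp2 (57.7 to 112 CPM) were present in every library. SAM replicates 2 and 3 carry treatment tags that conflict with their titles, and fitted differences of the judged members that use SAM alone are also given without them. The 6 libraries with SAM also stand in a separate block of library numbers, so in any comparison of SAM with non-SAM libraries the supplement and that block cannot be told apart. In earlier results of these data NAM replicate 3 and TGFβ+NAM replicate 1 lay apart from the rest of their groups, and fitted differences of the judged members that use them are given both ways.

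With TGFβ, the ligand Jag1 and the target Hes1 rose and the receptor Notch1 fell, whether SAM, NAM or no supplement was present. These 3 comparisons share no libraries. Jag1, Hes1 and Nrarp were each higher in all 3 TGFβ+SAM libraries than in any of the other 15 libraries, a pattern shown by 1.83% of the 13469 genes tested. No judged member passed the threshold, an adjusted p of 0.05, with NAM in untreated or TGFβ-treated cells, where at most 0.052% of all genes were called in either direction.

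**Figure D1:**
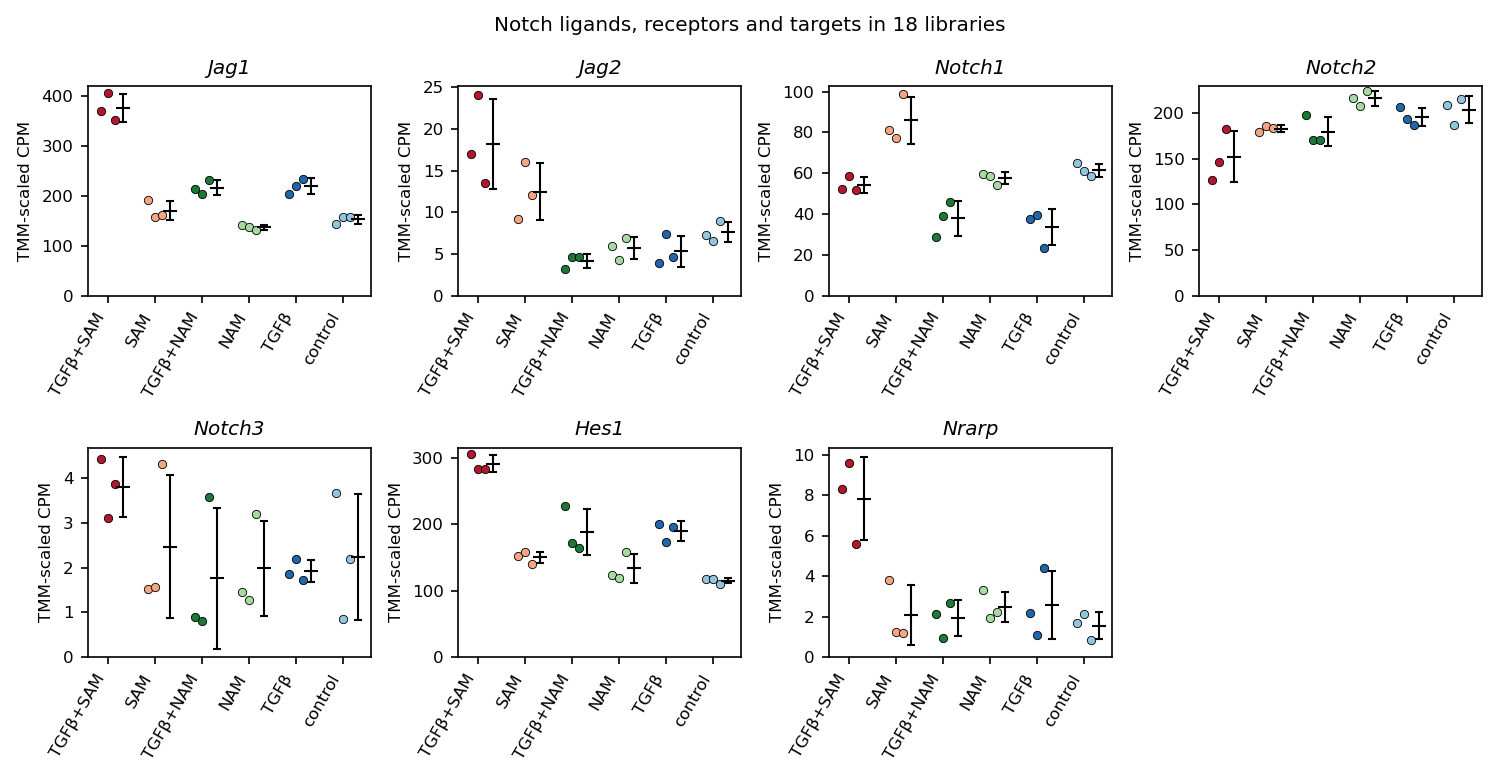
Level of each judged member in every library, in CPM (vertical axes, each with its own scale). Groups run from TGFβ+SAM at the left to control at the right. Points are libraries and bars are the mean ± SD of 3 libraries. The 3 TGFβ+SAM libraries of Jag1 (351 to 406 CPM) and Hes1 (283 to 305 CPM) lie above all others, and Notch1 is lowest in the TGFβ libraries (23.6 to 39.7 CPM) and TGFβ+NAM libraries (28.9 to 46.0 CPM).

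The promoters of Jag1 and Nrarp are shown because a ligand and a feedback target were highest in the same libraries. Sequences are from RefSeq (GRCm38.p6), 5′ to 3′ on the gene's strand, and capitals mark the N-box CACNAG, a motif bound by HES repressors, on either strand. The Jag1 sequence (chr2:137116645-137116770, minus strand) is the part of its window that lies outside the annotated gene, and the Nrarp sequence (chr2:25180508-25180757, plus strand) is the 250 bases before its start.
Jag1: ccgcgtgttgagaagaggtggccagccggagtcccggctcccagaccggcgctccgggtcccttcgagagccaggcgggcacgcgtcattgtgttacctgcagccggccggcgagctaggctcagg
Nrarp: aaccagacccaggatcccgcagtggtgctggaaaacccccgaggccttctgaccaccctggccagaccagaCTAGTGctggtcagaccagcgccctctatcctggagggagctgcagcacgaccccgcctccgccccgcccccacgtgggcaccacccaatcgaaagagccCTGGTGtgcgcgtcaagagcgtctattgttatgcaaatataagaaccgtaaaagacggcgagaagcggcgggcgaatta
Windows were found for 7 members, with 8 windows in all because Dll1 has more than 1 start. The starts are those of the promoter entries, not of the gene positions given here. The windows of Notch1 and Jag2 and 1 window of Dll1 lie wholly inside the annotated genes. Those of Jag1 and Notch2 lie partly inside. Hes1, Hey1 and Heyl had no entry. The core RBPJ motif GTGGGAA, searched on both strands of the 250 bases before the start, was in 0 of the 8 windows and in 5.42% of 32851 mouse promoters. The N-box was in 4 of the 8 windows and in 36.7% of all promoters. Nrarp and Notch3 held 2 each, and Notch1 (inside the annotated gene) and Notch2 held 1 each. With 0 matches of the RBPJ motif, no match of 1 motif overlapped the other, and a match is a description of sequence only.

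Jag1, a Jagged ligand, had 23409 reads over the 18 libraries. The gene (ENSMUSG00000027276) lies on chromosome 2, 137081456 to 137116644, minus strand, and all gene positions here are GRCm38 with GENCODE M21. In TGFβ-treated cells Jag1 stood at 203, 219 and 234 CPM, against 143, 158 and 157 CPM in control cells. The groups did not overlap, and the fitted log2 difference was 0.52 ± 0.09 (SE, adjusted p = 3.57e-05), a 1.44-fold rise. With NAM in the medium, Jag1 was at 213, 203 and 232 CPM in TGFβ+NAM cells, against 142, 137 and 130.4 CPM in NAM cells. This rise was 0.66 ± 0.09 (adjusted p = 4.01e-07), and 0.65 without the pair of libraries that stood apart.

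With SAM in the medium, Jag1 reached 369.6, 406 and 351 CPM in TGFβ+SAM cells, against 191, 157 and 162 CPM in SAM cells, a 2.21-fold rise (log2 1.14 ± 0.09, adjusted p = 3.16e-13). Without SAM replicates 2 and 3 it was 0.98 (adjusted p = 8.15e-07). The difference between the TGFβ responses with and without SAM was itself tested, and Jag1 was the only judged member past the threshold (log2 0.62 ± 0.13, adjusted p = 0.00498), against 0.802% of all tested genes called with a higher response with SAM and 0.631% with a lower one. Without SAM replicates 2 and 3 this difference was 0.46 and no longer passed (adjusted p = 0.301). Set against TGFβ alone, TGFβ+SAM cells had 0.78 ± 0.09 more Jag1 on the log2 scale (adjusted p = 3.78e-08). SAM alone, with 0.16 ± 0.09 over control (95% interval -0.03 to 0.35, adjusted p = 0.308), or 0.33 without SAM replicates 2 and 3, was not called.

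Ordered by mean level, Jag1 ran TGFβ+SAM (375 ± 28.0 CPM), TGFβ (219 ± 15.6), TGFβ+NAM (216 ± 14.9), SAM (169.9 ± 18.6), control (152 ± 8.36) and NAM (136 ± 5.77), all as mean ± SD of 3 libraries. TGFβ and TGFβ+NAM overlapped, as did SAM and control. The TGFβ+SAM libraries lay apart from every other group.

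Jag2, the second Jagged ligand (ENSMUSG00000002799, chromosome 12, 112907819 to 112929776, minus strand), followed another course. It had 17.0, 24.1 and 13.5 CPM in TGFβ+SAM cells, against 3.87, 7.37 and 4.66 CPM in TGFβ cells. The groups were clear of each other, with a 3.39-fold rise (log2 1.76 ± 0.32, adjusted p = 0.000145). SAM cells had 9.25, 16.1 and 12.1 CPM, against 7.32, 6.57 and 8.94 CPM in control cells. These groups did not overlap either, but the difference of 0.71 ± 0.30 was not called (adjusted p = 0.128), and without SAM replicates 2 and 3 it was 0.28.

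TGFβ did not change Jag2 past the threshold in any of the 3 settings. Its log2 change was -0.50 ± 0.33 without supplement (95% interval -1.16 to 0.16), -0.45 ± 0.34 with NAM (-1.13 to 0.23, or -0.12 without the pair of libraries that lay apart) and 0.55 ± 0.29 with SAM (-0.04 to 1.14), or 0.98 without SAM replicates 2 and 3 (adjusted p = 0.141). The difference between the responses with and without SAM was 1.05 ± 0.44 (adjusted p = 0.339), or 1.49 without those libraries (0.354). By level, TGFβ+SAM and SAM formed an upper pair of overlapping groups, and control, NAM (5.94, 4.23 and 6.96 CPM), TGFβ and TGFβ+NAM (3.19, 4.64 and 4.66 CPM) a lower set whose neighbours overlapped.

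Dll1, a Delta-like ligand (ENSMUSG00000014773, chromosome 17, 15367354 to 15376872, minus strand), had 95 reads over the 18 libraries and failed the filter. Summed over 3 libraries, 1 read fell in TGFβ+SAM cells, against 31 in SAM cells. TGFβ+NAM cells had 9 reads, against 21 in NAM cells, and TGFβ cells had 6 reads, against 27 in control cells. Reads within a group ranged widely, as in control replicates 1 to 3 with 6, 18 and 3 reads, and no test was made.

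Notch1, a receptor (ENSMUSG00000026923, chromosome 2, 26457903 to 26516663, minus strand), was lower with TGFβ in all 3 settings. TGFβ cells had 37.4, 39.7 and 23.6 CPM, against 64.9, 61.1 and 58.5 CPM in control cells. The groups did not overlap, and Notch1 fell to 0.552 of control (log2 -0.86 ± 0.15, adjusted p = 4.32e-05). TGFβ+NAM cells had 28.9, 39.0 and 46.0 CPM, against 59.7, 58.6 and 54.2 CPM in NAM cells (log2 -0.60 ± 0.15, adjusted p = 0.00298). Without the pair of libraries that stood apart the value was -0.47 (adjusted p = 0.0385). TGFβ+SAM cells had 52.2, 58.6 and 51.6 CPM, against 81.3, 77.4 and 99.0 CPM in SAM cells (log2 -0.66 ± 0.15, adjusted p = 0.0005). Without SAM replicates 2 and 3 it was -0.58 (adjusted p = 0.0475).

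The SAM libraries lay higher in Notch1 on both sides of the TGFβ treatment. Against TGFβ alone, TGFβ+SAM cells had 0.67 ± 0.16 more on the log2 scale (adjusted p = 0.00384), but without TGFβ replicate 3, the lowest library, this was 0.48 and not called (adjusted p = 0.0703). Against control, SAM cells had 0.48 ± 0.15 more (adjusted p = 0.0243), a call lost without SAM replicates 2 and 3 (0.40, adjusted p = 0.347), without SAM replicate 3 (adjusted p = 0.18) and without control replicate 1, 2 or 3 (adjusted p = 0.0515, 0.0831 and 0.105). The means ran from SAM (85.9 ± 11.5 CPM) through control (61.5 ± 3.19), NAM (57.5 ± 2.92) and TGFβ+SAM (54.1 ± 3.90), which overlapped in turn, to TGFβ+NAM (38.0 ± 8.64) and TGFβ (33.5 ± 8.72), which also overlapped. TGFβ+SAM cells were not called against control (log2 -0.18, adjusted p = 0.398).

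Notch2, also a receptor (ENSMUSG00000027878, chromosome 3, 98013527 to 98150361, plus strand), varied least of the judged members, with group means that spanned 0.52 on the log2 scale. TGFβ cells had 207, 194 and 187 CPM, against 209, 187 and 216 CPM in control cells, and the groups overlapped (log2 -0.06 ± 0.10, adjusted p = 0.778). TGFβ+SAM cells had 127, 147 and 183 CPM, below the TGFβ libraries by 0.36 on the log2 scale as fitted (-0.36 ± 0.10, adjusted p = 0.0193). This call was lost without TGFβ replicate 1 (adjusted p = 0.0988) or TGFβ+SAM replicate 1 (0.193) or 2 (0.0887).

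Against control, TGFβ+SAM cells were also lower in Notch2 (log2 -0.42 ± 0.10, adjusted p = 0.0013). This call was kept in all 14 alternatives, with adjusted p up to 0.0305. The Notch2 calls of TGFβ with a supplement against that supplement alone lay at the threshold. TGFβ+NAM cells had 198, 171 and 171 CPM, against 216, 208 and 225 CPM in NAM cells (log2 -0.27 ± 0.10, adjusted p = 0.0493), and the call was lost without NAM replicate 1, 2 or 3 or TGFβ+NAM replicate 2 or 3, with adjusted p between 0.0665 and 0.177. It was -0.31 in the fit that lacked the pair of libraries that lay apart (adjusted p = 0.0466). TGFβ+SAM cells differed from SAM cells (179, 186 and 184 CPM) by -0.26 ± 0.10 (adjusted p = 0.0454). TGFβ+SAM replicate 3, at 183 CPM, overlapped the SAM libraries, and without SAM replicates 2 and 3 it was -0.23 (adjusted p = 0.342). The call was also lost without SAM replicate 1, 2 or 3 or TGFβ+SAM replicate 1 or 2, with adjusted p between 0.0828 and 0.334, the highest without TGFβ+SAM replicate 1 (log2 -0.15). A same-strand transcript model, Gm42820, overlaps Notch2 and had 1003 reads of its own, against 21400 for Notch2, so some reads could be divided between them.

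Notch3, the receptor best known from mural cells (ENSMUSG00000038146, chromosome 17, 32120820 to 32166852, minus strand), had 264 reads and was not called in any comparison. Its libraries spanned 3.09 to 4.42 CPM in TGFβ+SAM cells and 0.80 to 4.30 CPM in the other 5 groups. The TGFβ+SAM libraries lay above the TGFβ libraries (1.85, 2.20 and 1.72 CPM), by 0.97 ± 0.66 on the log2 scale (95% interval -0.38 to 2.31, adjusted p = 0.45).

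Hes1, the canonical repressor target (ENSMUSG00000022528, chromosome 16, 30064384 to 30067796, plus strand), was higher with TGFβ in all 3 settings. TGFβ cells had 200.4, 173 and 196 CPM, against 117, 118 and 110.3 CPM in control cells. No library overlapped, and the rise was 1.65-fold (log2 0.72 ± 0.11, adjusted p = 2.15e-06). TGFβ+NAM cells had 227, 171 and 164 CPM, against 124, 118 and 159 CPM in NAM cells. The nearest libraries stood at 164 and 159 CPM, and the log2 rise was 0.49 ± 0.11 (adjusted p = 0.000617), or 0.48 without the pair of libraries that stood apart. TGFβ+SAM cells had 305, 283 and 284 CPM, against 152, 157 and 141 CPM in SAM cells (log2 0.96 ± 0.11, adjusted p = 1.93e-09), or 0.94 without SAM replicates 2 and 3.

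Hes1 was also higher in TGFβ+SAM than in TGFβ cells, by 0.62 ± 0.11 on the log2 scale (adjusted p = 8.31e-05), and in SAM than in control cells, by 0.38 ± 0.11 (adjusted p = 0.0161). The call against control was lost without control replicate 3 (adjusted p = 0.0813), SAM replicate 1 (0.0591), SAM replicate 2 (0.0718) or SAM replicates 2 and 3 (0.39, adjusted p = 0.174). The TGFβ responses with and without SAM were not shown to differ (0.24 ± 0.15, 95% interval -0.07 to 0.54, adjusted p = 0.638, or 0.23 without SAM replicates 2 and 3). By level the order was TGFβ+SAM (290.7 ± 12.7 CPM), TGFβ (189.6 ± 14.7), TGFβ+NAM (188 ± 34.5), SAM (149.8 ± 8.45), NAM (134 ± 21.9) and control (115 ± 4.05). TGFβ and TGFβ+NAM overlapped, and so did SAM and NAM.

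Nrarp, the feedback inhibitor (ENSMUSG00000078202, chromosome 2, 25180758 to 25183339, plus strand), rests on 339 reads. It had 8.32, 9.61 and 5.58 CPM in TGFβ+SAM cells, against 3.79, 1.25 and 1.21 CPM in SAM cells, a 3.71-fold rise (log2 1.89 ± 0.58, adjusted p = 0.0113). The call was lost without SAM replicate 2 (adjusted p = 0.0556), SAM replicate 3 (0.0569), TGFβ+SAM replicate 2 (0.0506) or SAM replicates 2 and 3 (log2 1.04, adjusted p = 0.398). TGFβ cells had 2.19, 1.10 and 4.42 CPM, below all TGFβ+SAM libraries, and this difference of 1.65 ± 0.58 did not pass (adjusted p = 0.0758). It did pass in 4 of 14 alternatives, over which adjusted p ran from 0.0238 to 0.261. Among these 4 were DESeq2 (adjusted p = 0.0303) and the fit without TGFβ replicate 3 (log2 2.24, adjusted p = 0.0454).

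TGFβ gave no called change in Nrarp without SAM. TGFβ cells differed from control cells (1.69, 2.14 and 0.843 CPM) by 0.65 ± 0.62 (95% interval -0.61 to 1.91), and TGFβ+NAM cells (2.12, 0.96 and 2.69 CPM) from NAM cells (3.33, 1.92 and 2.23 CPM) by -0.38 ± 0.60, or -0.52 without the pair of libraries that lay apart. The difference between the responses with and without SAM was 1.24 ± 0.85 (adjusted p = 0.662), or 0.41 without SAM replicates 2 and 3 (0.952). The 5 groups other than TGFβ+SAM overlapped throughout.

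Hey1 and Heyl, repressors of the same target class, could not be judged. Hey1 (ENSMUSG00000040289, chromosome 3, 8663359 to 8667256, minus strand) had 64 reads and a mean of 0.583 CPM. It passed the filter through a few libraries, with 1, 21 and 12 reads in TGFβ+SAM cells and 0, 4 and 15 in SAM cells, against at most 5 in any other library. The fit called TGFβ+SAM against control (adjusted p = 0.0158), but this rests on replicates 2 and 3, and no direction is read from it. Heyl (ENSMUSG00000032744, chromosome 4, 123233556 to 123249875, plus strand) had 1 read, in TGFβ replicate 3, and 0 in the other 17 libraries. A count of 0 in a group, read as up to 3 counts, allows 0.137 to 0.172 CPM, for counting error only.

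**Figure D2:**
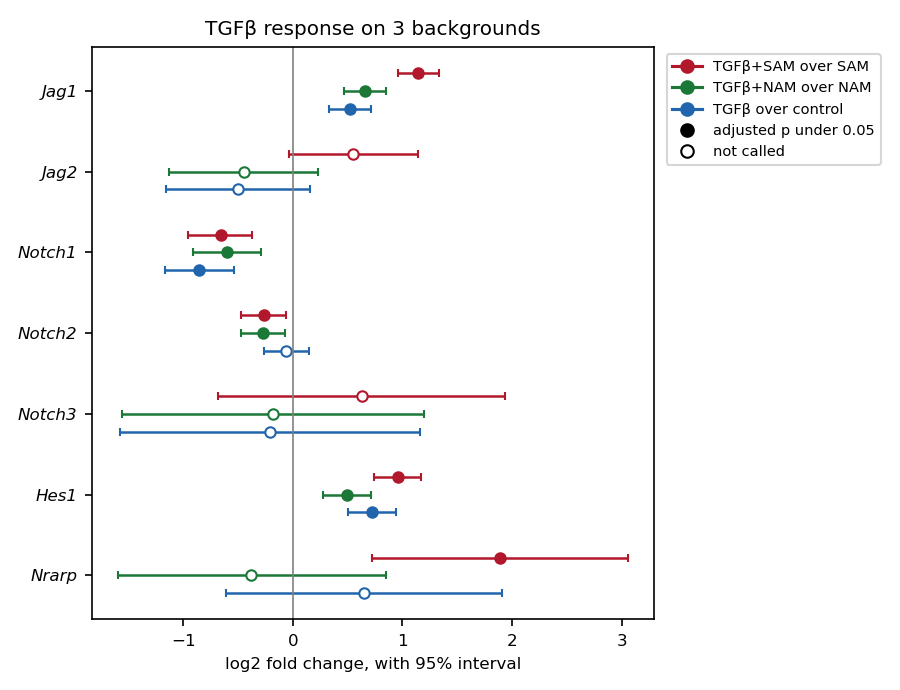
Response of the judged members to TGFβ with SAM, with NAM and without supplement, as fitted log2 differences (horizontal axis) with 95% intervals. Filled points passed an adjusted p of 0.05. Jag1 and Hes1 lie to the right of 0 and Notch1 to the left in all 3 settings, and the Jag1 response with SAM (1.14) is clear of that without supplement (0.52).

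Counted over the 7 judged members, TGFβ against control called 2 higher, where 9.7% of all tested genes were called higher, and 1 lower, where 9.73% were. TGFβ+NAM against NAM called 2 higher (10.9% of all genes) and 2 lower (11%). TGFβ+SAM against SAM called 3 higher (14.2%) and 2 lower (14.2%). Jag1 and Hes1 were called higher in all 3, as were 6.07% of tested genes, and Notch1 was called lower in all 3, as were 6.65%. Libraries of the groups did not overlap for 4 of the 7 in TGFβ+SAM against SAM (38.9% of all genes), for 4 in TGFβ+NAM against NAM (34.2%) and for 3 in TGFβ against control (36.2%). With so few members, these counts describe the list and set it apart from no other genes.

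TGFβ+SAM against TGFβ called 4 judged members higher (Jag1, Jag2, Notch1 and Hes1), where 3.07% of all tested genes were higher, and 1 lower (Notch2), where 4.25% were. All 7 judged members had libraries that did not overlap between these groups, as did 23.1% of all genes. The median log2 difference of the 7 was 0.78, and that of all genes -0.01. SAM against control called 2 higher (Notch1 and Hes1, 5.02% of all genes), and none of the other 5 passed in either direction, where 6.79% of genes were lower. Both of these were called with and without TGFβ, as were 1.46% of genes. TGFβ+SAM against control called 4 higher (Jag1, Jag2, Hes1 and Nrarp, 12.5%) and 1 lower (Notch2, 14.1%). Libraries did not overlap for 5 of the 7 in TGFβ+SAM against control (40.7% of all genes) and for 4 in SAM against control (31.6%).

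The sizes against control were 1.30 ± 0.09 for Jag1 (adjusted p = 1.26e-14), 1.34 ± 0.11 for Hes1 (5.49e-13) and 1.26 ± 0.30 for Jag2 (0.0013). Nrarp was 2.30 ± 0.59 higher (adjusted p = 0.00278) and Notch2 -0.42 ± 0.10 (0.0013).

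**Figure D3:**
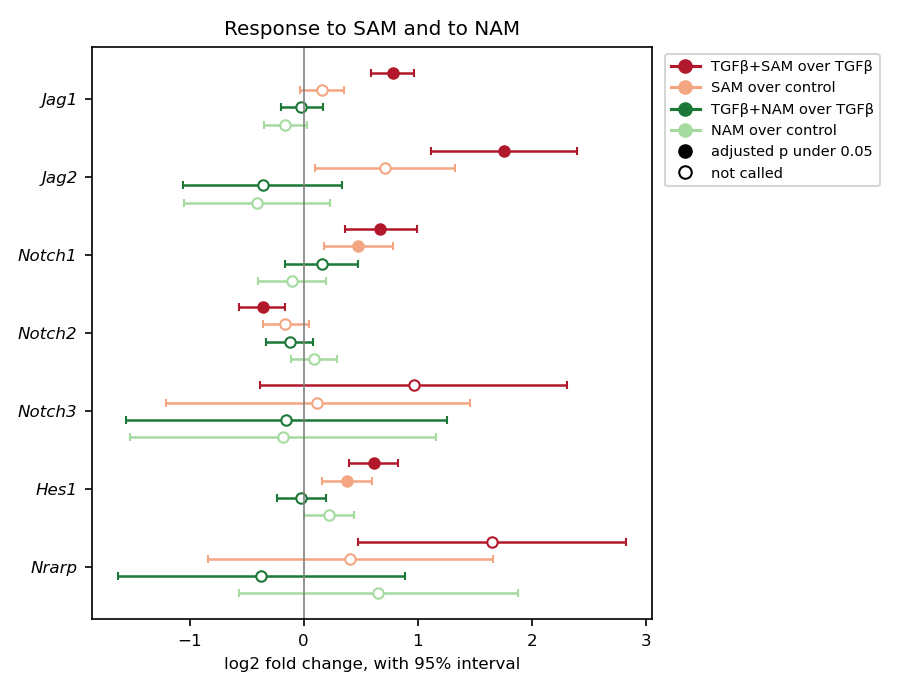
Difference of the judged members with each supplement, as fitted log2 values (horizontal axis) with 95% intervals, for SAM and NAM in TGFβ-treated and untreated cells. Filled points passed an adjusted p of 0.05. With SAM in TGFβ-treated cells, Jag1 (0.78), Jag2 (1.76), Notch1 (0.67) and Hes1 (0.62) lie to the right of 0, whereas no NAM point passed.

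NAM called 0 of the 7 judged members against control, where 0% of tested genes were higher and 0.00742% lower. Libraries did not overlap for 2 of the 7 there (13.5% of all genes) and for 0 in TGFβ+NAM against TGFβ (11.8%). TGFβ+NAM against TGFβ also called 0, where 0.0297% were higher and 0.052% lower, and the test for a different TGFβ response with NAM called 0 (0% in each direction). At an unadjusted p under 0.05 edgeR gave 0 judged members in each of the 3, against 722, 932 and 462 of all 13469 genes. With 7 members, this sets them apart from no other genes. DESeq2 called 0 judged members in each, with an adjusted p not given for 4, 2 and 0 of them. The intervals bound the size of what could be missed. In TGFβ-treated cells the fitted difference with NAM was, for Jag1, -0.02 (95% interval -0.20 to 0.17), for Hes1 -0.02 (-0.23 to 0.20), for Notch1 0.16 (-0.16 to 0.48) and for Notch2 -0.12 (-0.33 to 0.08), on the log2 scale. In untreated cells it was -0.16 for Jag1 (-0.35 to 0.03) and 0.22 for Hes1 (0.00 to 0.44). With the pair of libraries that lay apart left out, the differences in TGFβ-treated cells were 0.00 for Jag1, -0.17 for Hes1, 0.33 for Notch1, -0.19 for Notch2, -0.20 for Jag2, -0.44 for Nrarp and 0.17 for Notch3. Those in untreated cells were then -0.13 for Jag1 and 0.07 for Hes1, and none of these passed. With all libraries, the intervals in TGFβ-treated cells reached past 1 log2 unit downward only for Jag2 (-1.06 to 0.34) and Nrarp (-1.63 to 0.89). For Notch3 (-1.56 to 1.26) they did so in both directions. In untreated cells they did so downward for Jag2 (-1.05 to 0.23), upward for Nrarp (-0.57 to 1.88) and both ways for Notch3 (-1.52 to 1.16). Differences of that size in those directions are therefore not excluded.

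Markers of tubular and of matrix-producing cells moved with TGFβ beside these members. The summed level of 10 tubular markers, of which Epcam was at 0, was 595 to 686 CPM in TGFβ+SAM libraries against 1826 to 1889 in SAM, 657 to 682 in TGFβ+NAM against 1898 to 2026 in NAM, and 625 to 689 in TGFβ against 1646 to 1720 in control. Of the 7 tested with TGFβ alone, 4 were called lower, where 9.73% of all tested genes were. Krt8 was the 1 called higher (log2 0.93), where 9.7% of genes were. The summed level of 7 fibroblast markers, carried by Col1a1 and Col1a2 with Lum, Dpt and Pi16 at 0, was 65.6 to 74.1 CPM in TGFβ+SAM against 2.65 to 3.18 in SAM, 101 to 127 in TGFβ+NAM against 8.40 to 10.0 in NAM, and 121 to 133 in TGFβ against 6.43 to 8.60 in control. Endothelial markers summed to at most 1.55 CPM over the 7 listed, with Cdh5, Kdr and Tie1 at 0. The 7 mural markers, with Rgs5, Kcnj8 and Abcc9 at 0, summed to 4.65 to 11.7 CPM in TGFβ+SAM against 0.758 to 1.89 in SAM, 6.09 to 11.8 in TGFβ+NAM against 3.33 to 5.29 in NAM, and 7.61 to 10.2 in TGFβ against 2.53 to 4.36 in control. Only Pdgfrb and Des could be tested. Pdgfrb had 137 reads, with means of 0.0952 CPM in control, 0 in SAM and 0.50 in NAM cells. It passed the filter only through TGFβ-treated libraries. The fit called it with TGFβ over control (adjusted p = 0.00817) and with TGFβ and SAM over SAM (0.000905), but no direction is read from this. Des was called higher with TGFβ and SAM over SAM (adjusted p = 0.0015) and was not called with TGFβ over control (0.151). Neither was called with TGFβ and NAM over NAM, and the part of these 3 marker lists in the results was not tested. In bulk RNA, fewer cells of a type and less RNA per cell cannot be told apart.

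Jag1 and Hes1 were the most alike of the members. Their 6 group means, centred on the log2 scale, differed by a root mean square of 0.121, whereas the next closest pair of judged members stood at 0.354. Among 7003 other genes searched over the same 6 groups, Hes1 was closest to Selenoh (0.0281), Dusp7 (0.0758) and Mical2 (0.0863), and Jag1 to Dusp7 (0.0954), Selenoh (0.102) and Ubash3b (0.114). Notch1 was closest to Cd24a (0.111), Spata7 (0.117) and Nudt22 (0.118), and Jag2, with fewer reads, to Wnt5a (0.311), Celf5 (0.347) and Mmp15 (0.358).

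A further 53 genes of the pathway were listed, and 42 had enough reads to test. TGFβ called 5 of the 42 higher and 5 lower against control, where 9.7% and 9.73% of all genes were called, and the median was -0.01 where all genes had 0.01. With NAM it called 6 higher (10.9% of all genes) and 6 lower (11%), and with SAM 7 higher and 6 lower (14.2% of all genes each way). SAM called 5 higher (5.02%) and 2 lower (6.79%) against control, and TGFβ+SAM against TGFβ called 2 higher (3.07%) and 1 lower (4.25%). NAM called 0 of the 42 with or without TGFβ in edgeR (DESeq2 0 without TGFβ and 1 with it). Without and with TGFβ, 3 and 5 of the 42 had an unadjusted p under 0.05, against 722 and 932 of all 13469 genes. TGFβ+SAM against control called 4 higher (12.5%) and 6 lower (14.1%).

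Among 5 ubiquitin ligases of ligand endocytosis, which let a bound ligand pull on its receptor, Neurl1b moved most. It had 75.0, 71.5 and 80.0 CPM in TGFβ+SAM cells, against 481, 468 and 543 CPM in SAM cells (log2 -2.72 ± 0.14, adjusted p = 1.1e-19), or -2.67 without SAM replicates 2 and 3. TGFβ cells had 57.2, 73.3 and 43.4 CPM, against 198, 217 and 223 CPM in control cells (-1.86 ± 0.14, adjusted p = 3.87e-14), and TGFβ+NAM against NAM gave -2.21 (3.54e-16), or -2.08 without the pair of libraries that lay apart. SAM cells were 1.23 ± 0.13 above control (adjusted p = 1.94e-09), or 1.18 without SAM replicates 2 and 3. Mib2, of the Mind bomb family, was 0.75 ± 0.18 higher in TGFβ+SAM than in TGFβ cells (adjusted p = 0.00674).

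Of 10 tested genes of receptor turnover, which ubiquitinate or sort Notch, 2 were called higher and 1 lower with TGFβ, where 9.7% and 9.73% of all genes were. Dtx3l, of the Deltex family, had 265, 243 and 257 CPM in TGFβ cells, against 109, 92.8 and 76.2 CPM in control cells (log2 1.46 ± 0.12, adjusted p = 3.52e-13). TGFβ+SAM cells, at 102, 104 and 118 CPM, lay 1.24 lower than TGFβ cells as fitted (-1.24 ± 0.12, adjusted p = 1.1e-10). SAM cells had 52.2, 51.5 and 57.2 CPM. Dtx4, also of the Deltex family, fell with TGFβ without supplement (-1.01 ± 0.19, adjusted p = 7.02e-05), with NAM (-1.29, or -1.60 without the pair of libraries that lay apart) and with SAM (-1.46, or -1.34 without SAM replicates 2 and 3).

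Among glycosyltransferases that modify Notch, Lfng was low in the SAM libraries. SAM cells had 43.2, 47.3 and 42.4 CPM, against 92.6, 89.0 and 83.2 CPM in control cells (log2 -0.99 ± 0.12, adjusted p = 3.37e-08), or -1.03 without SAM replicates 2 and 3. TGFβ+SAM cells had 72.0, 71.2 and 66.0 CPM, above SAM cells by 0.65 (adjusted p = 2.62e-05), or 0.69 without SAM replicates 2 and 3, and TGFβ cells had 77.4, 73.1 and 69.2 CPM. In the nuclear complex, Rbpj was not called in any comparison. Furin, the protease that matures the receptor, rose with TGFβ in all 3 settings. The log2 rise was 0.65 ± 0.13 without supplement (adjusted p = 0.000269). With NAM it was 0.65 ± 0.13 (adjusted p = 2.06e-04), or 0.62 without the pair of libraries that lay apart. With SAM it was 0.95 ± 0.13 (adjusted p = 3.36e-07), or 0.91 without SAM replicates 2 and 3. Of the remaining ligands and targets, Dll3 and Dll4 had 3 and 4 reads in all, and Dlk1, Hes5 and Hey2 had 0. Hes6 was 0.51 ± 0.16 higher in TGFβ+SAM than in TGFβ cells (adjusted p = 0.047), a call that 4 alternatives lost.

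**Figure D4:**
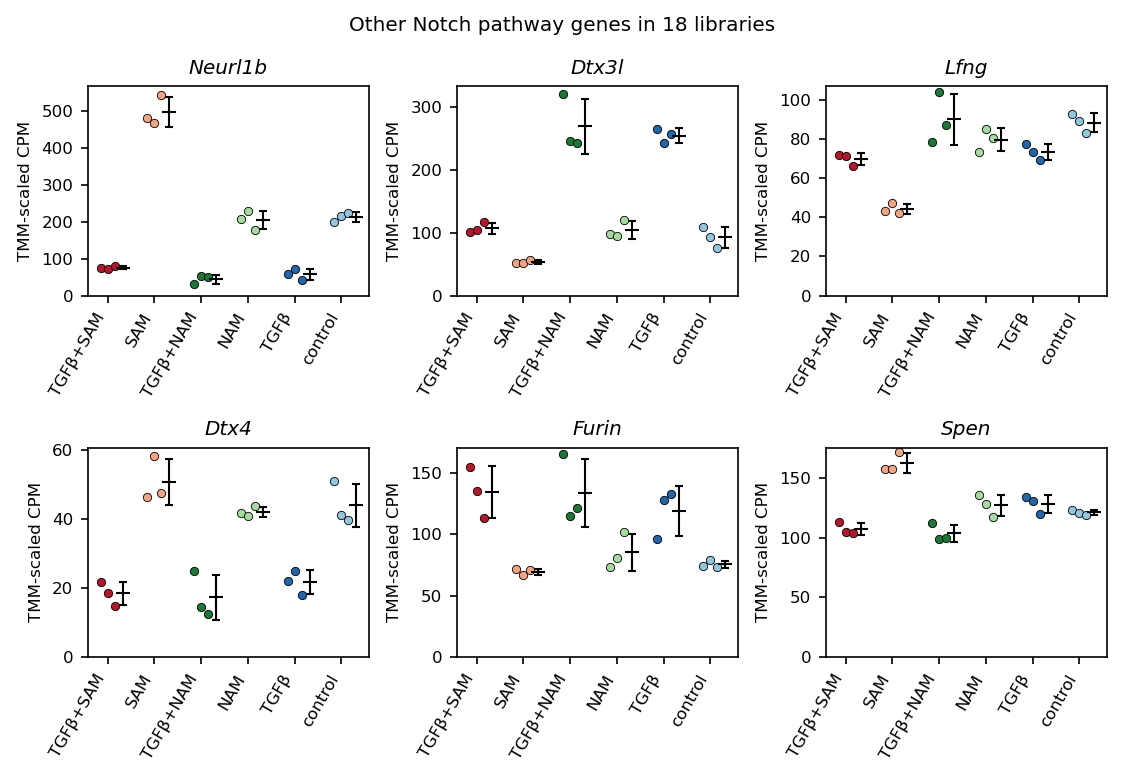
Level of named further genes of the pathway in every library, in CPM (vertical axes, each with its own scale), by group from TGFβ+SAM at the left to control at the right. Points are libraries and bars are the mean ± SD of 3 libraries. Neurl1b is highest in the SAM libraries (468 to 543 CPM) and Lfng lowest there (42.4 to 47.3 CPM), and Dtx3l is high in TGFβ and TGFβ+NAM libraries.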

How the data were processed

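The deposited table holds raw counts per gene and library, made by the authors with STAR and HTSeq, per the submitters' processing notes. Versions and the strand setting are not given in the sources used here, so reads of Notch1, Notch3 and Nrarp cannot be told apart from those of overlapping antisense genes, which had at most 120 reads. The notes name the human build GRCh38, whereas the rows are mouse Ensembl identifiers. Symbols and positions came from GRCm38 with GENCODE M21, which matched 55141 of 55487 identifiers. Rows without a gene (22.8% to 28.2% of reads outside features, 0.607% to 0.779% ambiguous) were left out. Replicates differed by more than counting noise (chi-square per gene 3.4 to 15.1), so none was a copy.

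Groups were taken from the titles. For SAM, replicates 2 and 3 have DIM. and LUN. as their tagged treatment, which their titles contradict. Library numbers skip 6 between the 12 libraries without SAM and the 6 with it.

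CPM was computed with TMM scaling. All 18 libraries entered 1 quasi-likelihood fit in edgeR 4.0.16 (R 4.3.3) with a term per group, after filterByExpr with a minimum count of 10, which kept 13469 genes. The test is two-sided, and p-values were adjusted by Benjamini-Hochberg over all tested genes within each of 8 comparisons and 2 interactions. An interaction is the TGFβ response with a supplement minus that without it. Scripts were tested on simulated data. An exact permutation test of 3 against 3 libraries cannot go below 0.1 and was not used. Intervals and floors cover 95% and 3 counts over a group.

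The members and the lists of other pathway genes and markers were chosen with earlier results of these data known. Members under the filter or under a mean of 1 CPM were not judged. Of the other pathway genes, up to 4 per comparison with the smallest p among those called were named by rule, although not every such gene is reported here. Likeness is the root mean square difference of centred log2 group means, for members of at least 5 CPM whose means span at least 1 with no test, among other named genes of at least 20 CPM. Alternatives were DESeq2 1.42.0, other scaling and filters, a fit of the compared groups alone, a replicate block, and libraries left out.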

Additional observations from a re-analysis of the deposited data

Results flagged for a closer look

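The TGFβ response differed between cells with and without SAM for 1 member, Jag1, by a test of the difference itself (log2 0.62, adjusted p = 0.00498 in edgeR, 0.301 without SAM replicates 2 and 3). The same test passed for 3 other pathway genes. For Lfng the difference was 0.92 (adjusted p = 0.000571), and it passed in all 21 alternatives, with adjusted p up to 0.0167. For Neurl1b it was -0.86 (adjusted p = 0.00785), and it was lost in DESeq2 (adjusted p = 0.08), without SAM replicates 2 and 3 (0.129) and without TGFβ replicate 2 (0.0996). For Spen, a corepressor of RBPJ, it was -0.68 (adjusted p = 0.00196), and it was lost without SAM replicates 2 and 3 (0.0842). Spen had 113, 105 and 104 CPM in TGFβ+SAM cells against 157, 158 and 172 CPM in SAM cells, and 134, 131 and 119.5 CPM in TGFβ cells against 123, 121 and 119 CPM in control cells.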

How the results depend on the processing

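Of 70 values of the judged members, 25 were called, 17 of these in every alternative, 8 were lost in at least 1 and 0 changed sign. Of the 45 not called, 12 had alternatives on both sides of 0. Without SAM replicates 2 and 3, SAM against control called 0 members higher (edgeR, 2 with them) and 466 genes (1591), TGFβ+SAM against SAM called 1 member lower (2) and 2258 genes (3824), and the test of a different response with SAM called 0 members (1) and 63 genes (193). TGFβ+SAM against SAM also called 1 member lower with library totals, with no low-count filter and with the compared groups alone, all by the loss of Notch2. TGFβ+NAM against NAM called 1 member lower (2) with DESeq2-type size factors, with the compared groups alone and with the replicate block, again by the loss of Notch2. NAM against control called 1 gene, 15 with no filter and 9 in DESeq2. TGFβ+NAM against TGFβ called 11 genes, 32 with no filter, 39 in DESeq2, 19 without NAM replicate 3 and TGFβ+NAM replicate 1, and 0 with the compared groups alone (745 at an unadjusted p under 0.05). With single libraries left out, SAM against control called 0 to 1 members higher, TGFβ+NAM against NAM and TGFβ+SAM against SAM 1 to 2 lower each, and TGFβ+SAM against TGFβ 0 to 1 lower and 630 to 1069 genes (986), and TGFβ+NAM against TGFβ 3 to 14 genes. The share of higher calls in TGFβ+NAM against TGFβ was 27.3% with library totals and 36.4% with either other scaling. Same-numbered libraries did not deviate together over all tested genes (r from -0.0997 to 0.0696 over 45 pairs, 0 over 0.1). Among differently numbered pairs r reached 0.168 (NAM replicate 3 and TGFβ+NAM replicate 1) and -0.127 (NAM replicate 2 and TGFβ+NAM replicate 1). This cannot show whether libraries shared a culture or preparation, because a weak effect, or one on few genes, would not be seen. Nrarp (339 reads) and Notch3 (264 reads) are limited by depth, and the cause of each lost call was not tested.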

Other observations

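Notch4, a receptor best known from endothelium, was chosen here after its values were seen. It had 11, 7 and 15 reads in TGFβ+SAM libraries, against 0, 3 and 0 in SAM libraries, and 17, 14 and 18 reads in TGFβ+NAM libraries, against 1, 7 and 2 in NAM libraries. Both differences passed in edgeR (adjusted p = 0.0128 and 0.0257), and the libraries did not overlap. Every SAM and NAM library had fewer than 10 reads, the minimum count of the filter. Notch4 therefore passed the filter mainly through TGFβ-treated libraries, and no direction is read from these calls. Without SAM replicates 2 and 3 the log2 difference with SAM was 6.52, set against 1 SAM library with 0 reads. With NAM replicate 3 and TGFβ+NAM replicate 1 left out, that with NAM was 2.32 and not called (adjusted p = 0.146). Without supplement there were 6, 10 and 21 reads in TGFβ libraries, against 16, 8 and 5 in control libraries, and these overlapped.

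Maml3, a coactivator of the Notch nuclear complex, was also chosen after its values were seen. It was called lower with TGFβ in all 3 settings, by -1.03 ± 0.21 on the log2 scale with SAM (adjusted p = 0.000177), -0.81 ± 0.22 with NAM (0.00514) and -0.66 ± 0.22 without supplement (0.0282). Without SAM replicates 2 and 3 the SAM value was -0.72 and not called (adjusted p = 0.0991), and the NAM value was, with the same NAM and TGFβ+NAM libraries left out, -0.73 (0.0263).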
